A study of Homo sapiens with 6 samples.

Results

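To see how cholesterol metabolism responds to CDK4/6 inhibition, 29 genes of cholesterol synthesis, uptake and control were followed among the 60656 genes of the count table. They were chosen by name, 19 for the enzymes from ACAT2 to DHCR7 and 10 for SREBP2 control, liver X receptors, efflux, transport and storage, and each was matched by its Ensembl identifier. The cells were parental ZR-75-1 cells, an established ER-positive human breast cancer line with RB1 unedited, grown in serum-containing medium. One group of 3 libraries received DMSO, the solvent, and the other group of 3 received 500 nM abemaciclib, a CDK4/6 inhibitor, each for 4 days. Isogenic RB1-knockout cells belong to the study's design and were not analysed here, so nothing below separates an effect of Rb from other effects of the drug.

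Cholesterol is built from acetyl-CoA through mevalonate, farnesyl pyrophosphate, squalene and lanosterol, and cells can also take it up from serum lipoproteins. The transcription factor SREBP2 (from SREBF2) drives the enzymes of this route when sterols are scarce: SCAP carries it out of the endoplasmic reticulum to be cut, and the INSIG proteins hold SCAP back when sterols are plentiful. The liver X receptors act in the other direction, raising efflux pumps and MYLIP, a ligase that marks lipoprotein receptors for decay. In luminal breast cells, sterols are also the precursors of oxysterols that can act on nuclear receptors.

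The libraries held between 3317860 and 4013156 counts on genes, and levels are given as CPM, counts scaled to 1e6 per library by edgeR's TMM sizes. Where a library shows 0 counts, levels up to 0.748 to 0.904 CPM remain possible from counting error alone. Since reads start at the 3′ ends of mRNAs, transcript length does not enter a level, and genes are compared on that scale. The cells carried the markers of their label. All 7 luminal genes had counts and summed to between 6661 and 7275 CPM with DMSO and between 7563 and 8640 CPM with abemaciclib, a sum carried mostly by KRT19. They did not move together: ESR1 and KRT19 were higher (log2 fold changes of 0.83 and 0.45), KRT18 was lower (−0.34), and GATA3, FOXA1, KRT8 and EPCAM did not pass. The 3 basal markers KRT5, KRT14 and TP63 had no counts, nor did 4 of the 5 mesenchymal markers (VIM, COL1A2, COL3A1 and PDGFRB, while COL1A1 was between 10.1 and 15.8 CPM), and of the 3 leukocyte markers PTPRC and CD3E had none and CD68 reached at most 0.297 CPM. MKI67, a mark of cycling cells, was between 494.0 and 556.7 CPM with DMSO and between 3.21 and 7.57 CPM with abemaciclib, and the part of this difference in the values below was not tested.

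Abemaciclib moved single steps of the cholesterol route in both directions with no shift of the median over its genes. Of the 29 genes, 27 had enough counts to be tested, and 3 were higher (TM7SF2, DHCR7 and SCAP) and 5 lower (ACAT2, FDPS, FDFT1, EBP and STARD4) by the quasi-likelihood test of edgeR with a threshold of 0.05 on the adjusted P. That is 29.6% of those tested, against 25.7% of all 10863 genes, so the share of cholesterol genes called was near the background. By direction, 11.1% were higher against 12.5% of all genes, and 18.5% lower against 13.3%. The median log2 fold change was −0.01, with 13 positive and 14 negative, and the median over all genes tested was 0.00. The median absolute log2 fold change was 0.28 against 0.32 over all genes. In 10 of the 27 genes the groups did not overlap, or 37.0% against 39.1% of all genes, 4 with abemaciclib above (19.1% of all genes) and 6 with it below (20.1%). In a bulk library, a change in the kinds of cells and a change in RNA per cell cannot be told apart. The counts rested on few libraries: without DMSO replicate 1 there were 1 higher and 3 lower genes, without abemaciclib replicate 1 there were 1 and 2, and without DMSO replicate 3 or abemaciclib replicate 2 there were 3 lower.

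**Figure D1:**
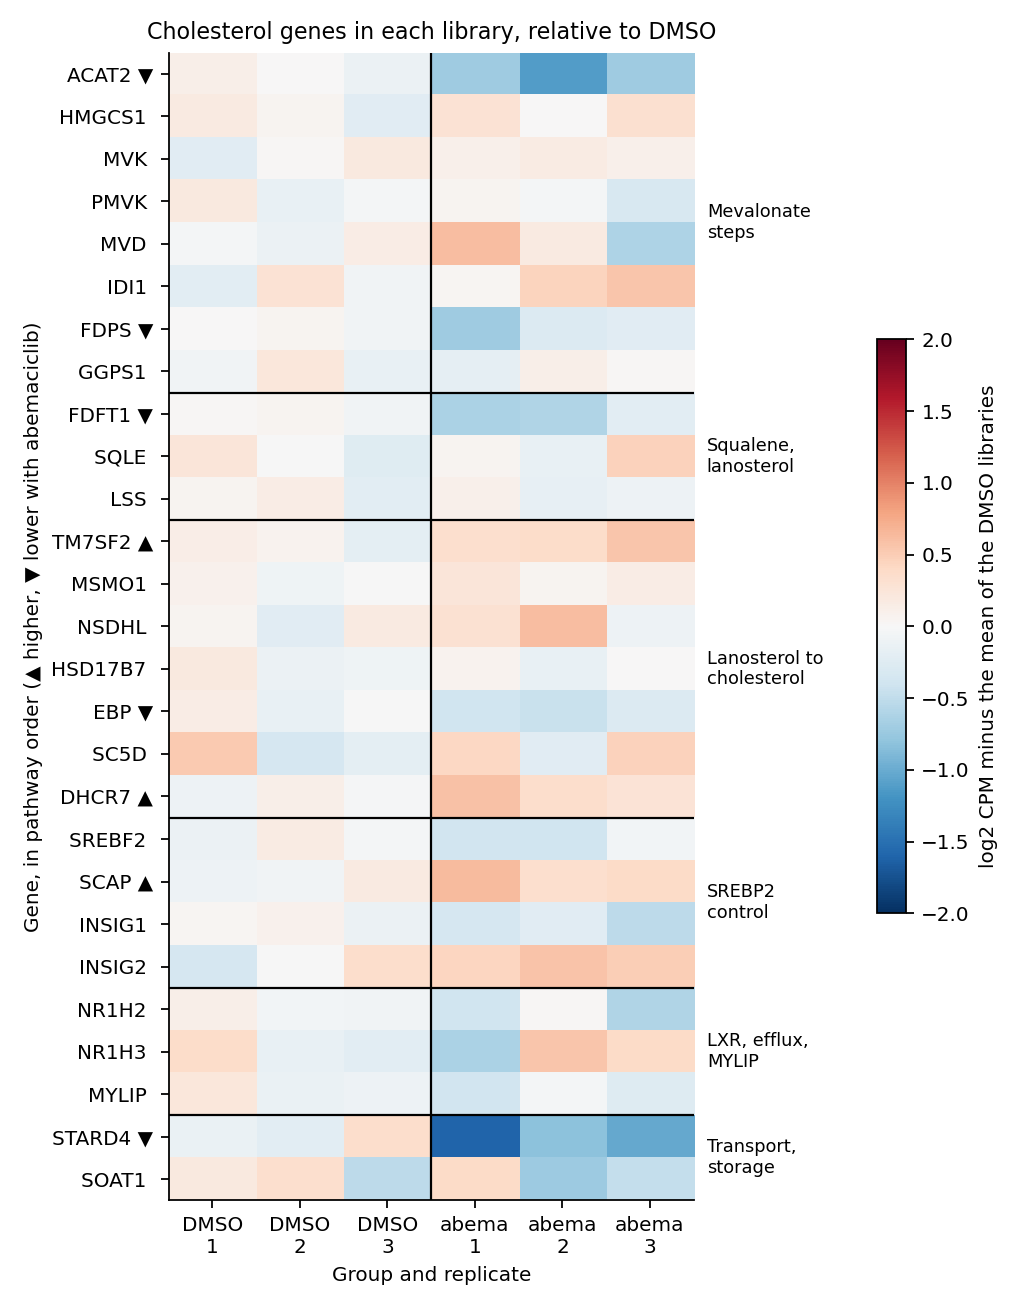
Level of the 27 genes tested in each library, as log2 CPM minus the mean of the 3 DMSO libraries, in pathway order from ACAT2 to SOAT1 (rows) and by group and replicate (columns, abema for abemaciclib). Blue cells mark ACAT2, FDPS, FDFT1, EBP and STARD4 in all 3 abemaciclib libraries, with STARD4 lowest at −1.60 in replicate 1, while TM7SF2, DHCR7 and SCAP are red in all 3.

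The promoters of these genes share sequence features that the choice of genes did not use. Promoters of 300 bases (250 before to 50 after the start site, RefSeq, GRCh38.p14) were at hand for 26 of the 29 genes; ACAT2, FDFT1 and SQLE had none. They were searched on both strands for TCACNCCAC, a form of the sterol regulatory element that SREBP binds, for CCAAT, the box bound by NF-Y, and for GGGCGG, the GC box bound by Sp1, and no match of 1 motif shared a base with a match of another. CCAAT was found in 17 of 26 promoters (65.4%), against 35.7% of 27305 promoters and 37.7% of the 8589 promoters of genes tested. GC boxes were found in 23 of 26 (88.5%), against 44.6% and 72.7%. The strict sterol element was in 1 of 26, that of SREBF2 itself, against 1.15% and 1.00%. A single start site was used per gene. For IDI1 and GGPS1 the window lies wholly upstream of the gene as annotated in GENCODE 44. For DHCR7, SCAP, NR1H2, MVK and CYP51A1 it lies wholly inside the annotated gene. The start sites of all these genes are therefore uncertain. The windows of IDI1 and GGPS1 held neither a CCAAT box nor the sterol element. A CCAAT box stood in 2 of 3 promoters of higher genes, 3 of 3 of lower genes and 12 of 18 of genes that did not pass. So few promoters of called genes cannot show whether these letters divide the genes by direction. ACAT2 and FDFT1, both lower, had no promoter, and the start sites of DHCR7 and SCAP, both higher, are uncertain. The promoters of a gene that fell (FDPS), one that rose (DHCR7) and of SREBF2 are shown to let these boxes be compared, with CCAAT on either strand (ATTGG on the other) and the sterol element in capitals. They lie at chr1:155308616-155308915 (plus strand), chr11:71448344-71448643 (minus strand) and chr22:41832855-41833154 (plus strand).
FDPS: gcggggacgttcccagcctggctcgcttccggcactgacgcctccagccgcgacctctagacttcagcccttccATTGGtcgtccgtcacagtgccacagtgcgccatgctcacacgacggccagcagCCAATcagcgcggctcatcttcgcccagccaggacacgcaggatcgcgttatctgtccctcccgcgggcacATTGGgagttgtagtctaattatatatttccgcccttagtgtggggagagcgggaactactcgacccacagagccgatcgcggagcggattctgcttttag
DHCR7: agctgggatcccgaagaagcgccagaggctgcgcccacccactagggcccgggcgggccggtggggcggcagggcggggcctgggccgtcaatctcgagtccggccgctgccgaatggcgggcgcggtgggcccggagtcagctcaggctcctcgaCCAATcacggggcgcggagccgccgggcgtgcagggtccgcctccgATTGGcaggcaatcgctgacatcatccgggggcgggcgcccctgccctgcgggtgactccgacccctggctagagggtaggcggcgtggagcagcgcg
SREBF2: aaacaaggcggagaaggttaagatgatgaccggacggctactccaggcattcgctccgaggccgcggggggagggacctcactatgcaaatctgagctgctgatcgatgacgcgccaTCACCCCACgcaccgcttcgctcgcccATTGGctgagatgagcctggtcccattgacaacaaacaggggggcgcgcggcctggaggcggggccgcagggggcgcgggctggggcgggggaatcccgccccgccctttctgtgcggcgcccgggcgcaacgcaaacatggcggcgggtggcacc
The FDPS promoter held 3 CCAAT boxes, at −176, −122 and −51 from the start site. DHCR7 held 2, at −94 and −48 from the start site used, which is uncertain. In SREBF2 the sterol element began at −133 and was followed by 1 CCAAT box at −106.

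The first 8 steps, from acetyl-CoA to farnesyl and geranylgeranyl pyrophosphate, held 2 genes that were lower (25%, against 13.3% of all genes). They held 0 that were higher (0 at an unadjusted P under 0.05, and 0 higher by DESeq2), against 12.5% of all genes. ACAT2, which joins acetyl-CoA units at the entry of the route, lies on chromosome 6 of GRCh38 from 159762045 to 159779112. It stood at 54.8, 50.8 and 46.3 CPM in DMSO replicates 1 to 3 and at 30.6, 22.9 and 30.5 CPM with abemaciclib. The groups were far apart, and the level fell by 44.9% (log2 fold change −0.86, with a standard error, SE, of 0.17, adjusted P = 0.00039). ACAT2 was the one gene of the 27 to keep its call with every library left out in turn, at −0.93 to −0.73, along with all other alternatives. Of its last 500 exonic bases, 454 overlap TCP1, a chaperonin subunit, on the opposite strand, and TCP1 itself stood at a log2 fold change of −0.28 (SE 0.10, adjusted P = 0.0415), so ACAT2 counts are uncertain where strand was not used.

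FDPS, which makes farnesyl pyrophosphate, lies on chromosome 1 from 155308748 to 155320666. Its level was 138.1, 142.0 and 130.9 CPM with DMSO and 83.2, 112.8 and 117.0 CPM with abemaciclib. Every treated library was below every control, with replicate 1 well below the other two, and the log2 fold change was −0.39 (SE 0.12, adjusted P = 0.0193). The call was lost without DMSO replicate 1 (−0.39), DMSO replicate 2 (−0.37) or abemaciclib replicate 1 (−0.25). Its 8 annotated pseudogenes held 22 counts in all 6 libraries together against 2551 for the gene.

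The other 6 genes of this stretch did not pass. HMGCS1, which makes HMG-CoA and is a classical SREBP2 target, was at 68.5, 62.4 and 51.2 CPM with DMSO and 73.5, 60.7 and 75.1 CPM with abemaciclib. The groups overlapped, and the 95% interval of its log2 fold change ran from −0.10 to 0.50. IDI1, which interconverts the isoprene units of the route, had the highest estimate of the 6, going from 28.4, 40.4 and 31.5 to 34.2, 45.1 and 48.9 CPM (log2 fold change 0.36, interval −0.02 to 0.73, adjusted P = 0.158). MVK and PMVK, the kinases that phosphorylate mevalonate, had log2 fold changes of 0.12 (interval −0.21 to 0.45) and −0.11 (−0.40 to 0.19). MVD, the decarboxylase after them, was at 46.9, 34.5 and 19.5 CPM in the treated libraries, a spread of 40.9% of their mean, against 9.65% with DMSO, and its estimate of 0.14 became −0.16 without abemaciclib replicate 1. GGPS1, which extends farnesyl to geranylgeranyl pyrophosphate for protein prenylation, was at 77.7 ± 10.9 CPM in the controls and 76.9 ± 7.95 CPM in the treated libraries (SD, n = 3 each), with an interval from −0.29 to 0.27.

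Among the 3 enzymes from farnesyl pyrophosphate to lanosterol, 1 was lower (33.3%, against 13.3% of all genes, a difference not tested for so few genes). FDFT1, squalene synthase and the first step committed to sterols, lies on chromosome 8 from 11795573 to 11839395. It was at 112.5, 114.1 and 104.8 CPM with DMSO and at 71.1, 72.8 and 94.8 CPM with abemaciclib. The groups did not overlap, with abemaciclib replicate 3 nearest to the controls, and the log2 fold change was −0.47 (SE 0.13, adjusted P = 0.00656). Without abemaciclib replicate 2 the adjusted P was 0.0502 (log2 fold change −0.41). SQLE, the squalene epoxidase and a rate-limiting step, was at 79.8, 66.5 and 56.9 CPM with DMSO and 69.6, 60.4 and 92.7 CPM with abemaciclib. Its groups overlapped (log2 fold change 0.13, interval −0.19 to 0.45), and without abemaciclib replicate 3 the estimate was −0.06. LSS, which closes squalene epoxide into lanosterol, was at 19.1 ± 2.44 and 18.2 ± 1.83 CPM (SD, n = 3 each), with an interval from −0.54 to 0.40.

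From lanosterol to cholesterol, 2 of the 7 enzymes tested were higher (28.6%) and 1 was lower (14.3%). Over all genes these shares were 12.5% and 13.3%, and the difference was not tested for so few genes. TM7SF2, a sterol C14 reductase on chromosome 11 from 65111845 to 65116384, was at 70.8, 68.0 and 56.3 CPM with DMSO and 82.0, 83.6 and 95.1 CPM with abemaciclib. All treated libraries were above all controls, and the log2 fold change was 0.42 (SE 0.13, adjusted P = 0.0204). Its call was lost without DMSO replicate 3 (0.32) or abemaciclib replicate 3 (0.35). DHCR7, which makes the last reduction to cholesterol and lies on chromosome 11 from 71428193 to 71452868, was at 126.2, 146.4 and 133.6 CPM with DMSO and 204.2, 173.4 and 163.7 CPM with abemaciclib. It too was separated by group, with replicate 1 highest, and the log2 fold change was 0.41 (SE 0.11, adjusted P = 0.00659). Without DMSO replicate 1 the value was 0.36 and without abemaciclib replicate 1 it was 0.32, and neither passed.

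EBP, the sterol isomerase, lies on chromosome X from 48521799 to 48528716 and moved the other way. It was at 101.2, 82.6 and 90.9 CPM with DMSO and 69.3, 66.6 and 75.7 CPM with abemaciclib. The groups did not overlap, and the log2 fold change was −0.38 (SE 0.13, adjusted P = 0.03). This was the least firm of the 8 calls: it was lost with DESeq2 (adjusted P = 0.0708) and with no filter on low counts (0.0501), with the replicate number as a block (0.0574), and without DMSO replicate 1 (log2 fold change −0.30), DMSO replicate 3 (−0.38), abemaciclib replicate 1 (−0.36) or abemaciclib replicate 2 (−0.33).

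MSMO1 and NSDHL, which act together to remove the C4 methyl groups, had log2 fold changes of 0.15 (interval −0.10 to 0.39) and 0.30 (−0.07 to 0.67). NSDHL was at 47.8, 59.2 and 35.9 CPM in the treated libraries, and passed without abemaciclib replicate 3 (0.47, adjusted P = 0.0399). HSD17B7, the ketoreductase of the same complex, and SC5D, the C5 desaturase, were low, at 7.80 and 9.06 CPM with DMSO, and their intervals ran from −0.75 to 0.69 and from −0.49 to 0.89. CYP51A1, the lanosterol demethylase, could not be measured. It had 1 count in all 6 libraries together. Of its last 500 exonic bases, 494 are shared on the same strand with another annotated protein-coding gene, which had 0 counts, and featureCounts by default leaves out reads that fall on more than one gene. Whether CYP51A1 was expressed was therefore not tested.

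**Figure D2:**
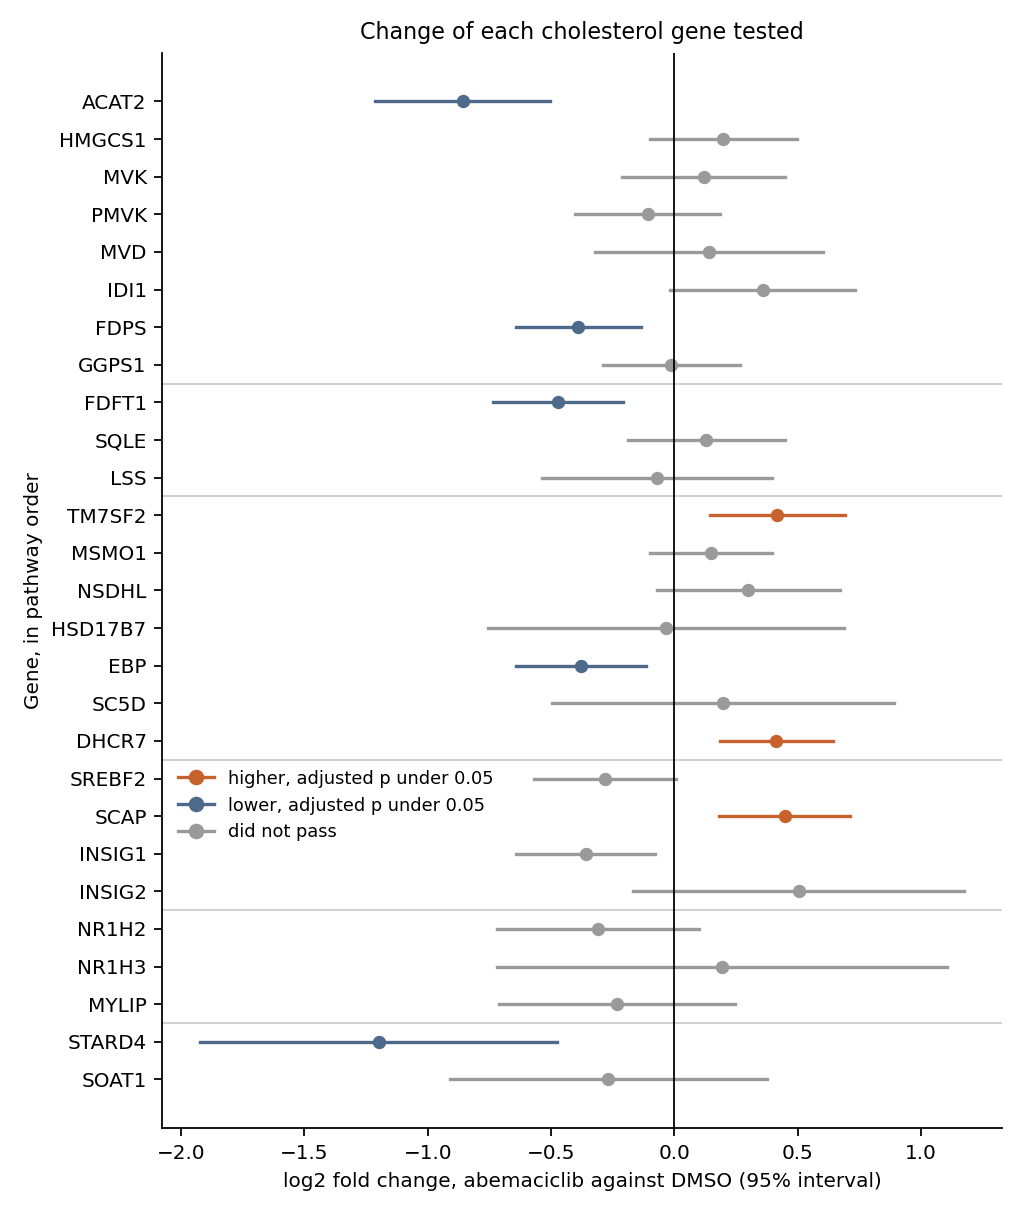
Log2 fold change of abemaciclib against DMSO (x axis) with its 95% interval for each gene tested, in pathway order (y axis), coloured by call. The 8 called genes are spread over the route, from −1.20 for STARD4 to 0.45 for SCAP, and the intervals of the 19 others are widest for the genes of low level such as NR1H3 and HSD17B7.

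Added up, the enzymes' transcripts changed little. The 19 enzymes summed to 1133 ± 46.8 CPM with DMSO and 1138 ± 24.9 CPM with abemaciclib (SD, n = 3 each), a difference of 0.385%. The 8 mevalonate steps went from 507.3, 517.2 and 476.5 CPM to 452.3, 473.0 and 468.0 CPM, a difference of −7.17% with groups that did not overlap. FDPS and ACAT2 carried that difference, since 4 of the 8 estimates were positive and their median was 0.05. The 3 steps around squalene were at 212.0, 201.7 and 178.1 CPM against 161.0, 150.0 and 205.1 CPM, and overlapped. The late steps went the other way, from 453.6, 426.6 and 427.1 CPM to 527.3, 488.5 and 488.0 CPM, a sum 15.0% higher with no overlap, with DHCR7 and TM7SF2 as its called rises and EBP as its called fall. These sums are descriptions without a test, since their genes were chosen with earlier results known, and CYP51A1 adds nothing to them.

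**Figure D3:**
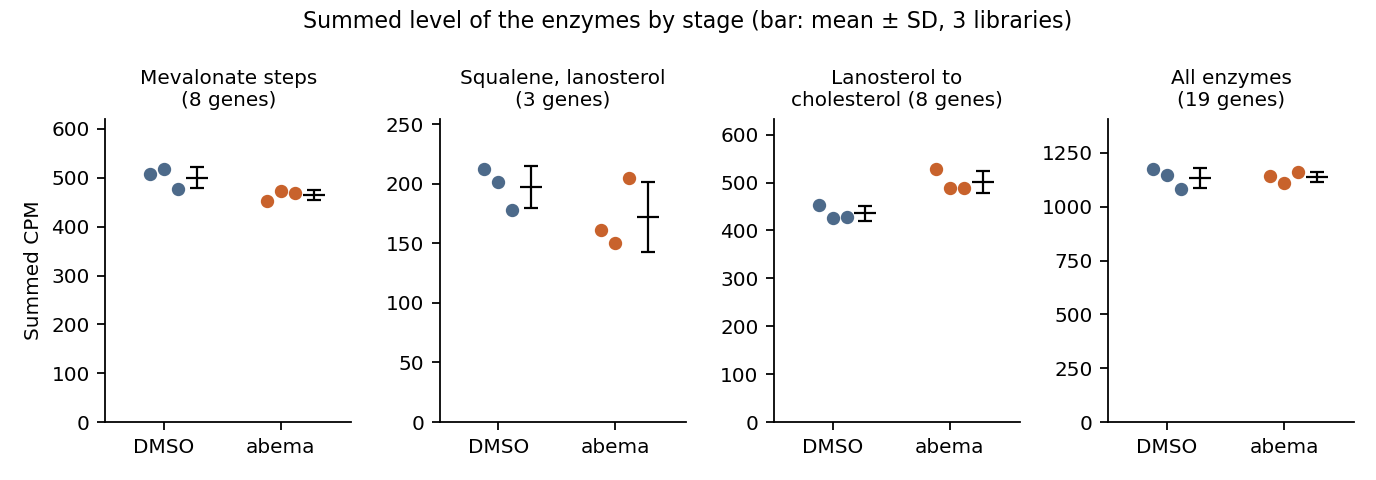
Summed CPM (y axis, from 0) of the enzymes of each stage in every library (points) with the mean and SD of 3 libraries (bars), for DMSO and abemaciclib (abema). The mevalonate steps sit lower and the late steps higher with abemaciclib, while the sum of all 19 enzymes lies between 1082 and 1173 CPM with DMSO and between 1111 and 1161 CPM with abemaciclib.

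**Figure D4:**
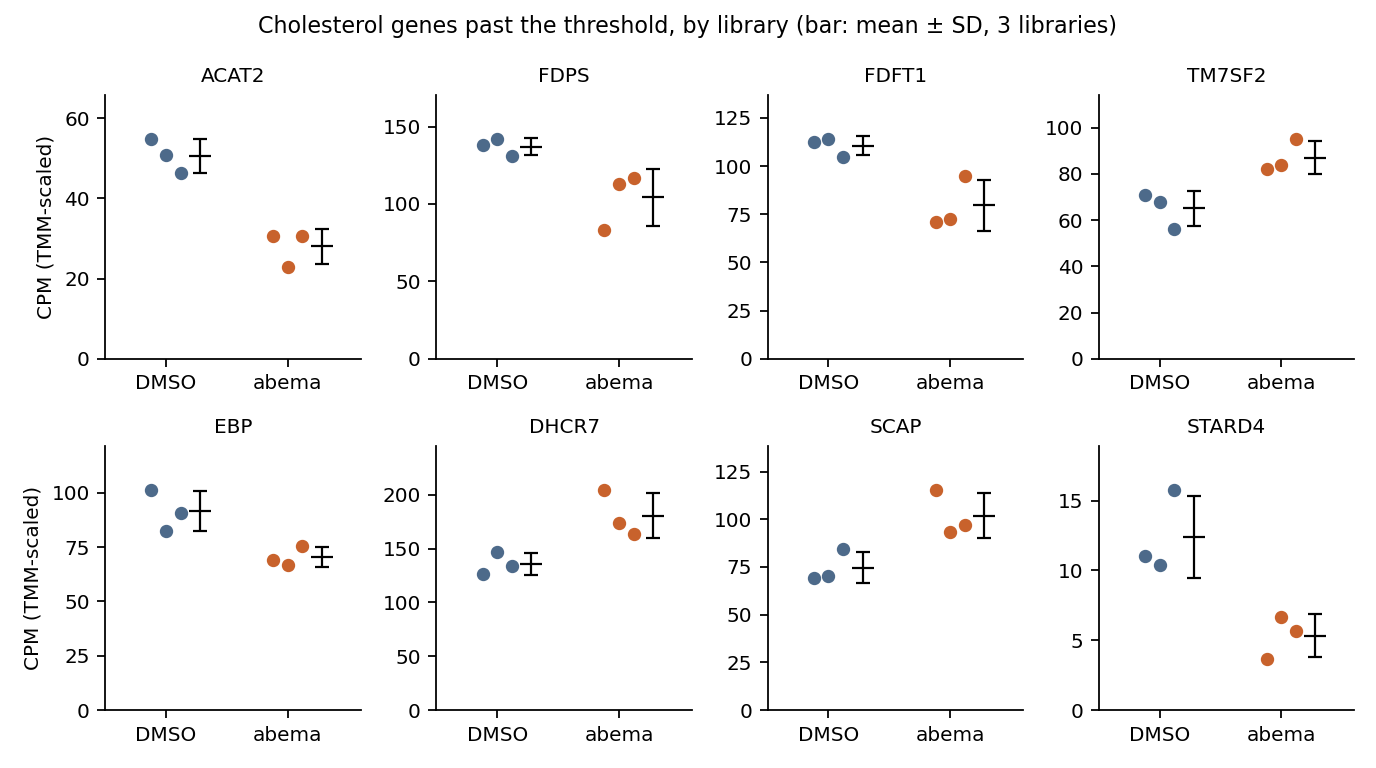
CPM (y axis, from 0) of the 8 genes past the threshold in every library (points), with the mean and SD of 3 libraries (bars), for DMSO and abemaciclib (abema). In each panel the groups do not overlap, and the means are furthest apart on the log2 scale for STARD4 (−1.20) and ACAT2 (−0.86).

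In the SREBP2 control circuit 1 of 4 genes was called, or 25% against 25.7% of all genes. SCAP, the escort of SREBP2, lies on chromosome 3 from 47413681 to 47477126 and was at 69.3, 70.4 and 84.2 CPM with DMSO and 115.3, 93.5 and 96.7 CPM with abemaciclib. Its groups did not overlap, and the log2 fold change was 0.45 (SE 0.13, adjusted P = 0.011). The call was lost without DMSO replicate 1 (0.39), DMSO replicate 2 (0.40) or abemaciclib replicate 1 (0.35). SREBF2 was at 69.0, 84.4 and 73.3 CPM with DMSO and 57.5, 56.7 and 72.1 CPM with abemaciclib. Only abemaciclib replicate 3 reached the range of the controls, and the gene did not pass (log2 fold change −0.28, interval −0.57 to 0.01, adjusted P = 0.147). It passed as lower without that library (−0.40, adjusted P = 0.0371).

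The paired retention factors INSIG1 and INSIG2 had opposite signs. INSIG1, itself an SREBP2 target, was at 75.1, 77.2 and 66.9 CPM with DMSO and 57.8, 62.2 and 50.8 CPM with abemaciclib. The groups did not overlap, but the gene just missed the threshold (log2 fold change −0.36, SE 0.14, adjusted P = 0.0545). With at least 10 counts in every library as the filter its adjusted P was 0.0486. INSIG2, at 5.80, 7.43 and 9.69 CPM with DMSO and 10.3, 11.3 and 10.8 CPM with abemaciclib, was also separated, and with so few counts had a log2 fold change of 0.50 with an interval from −0.17 to 1.17 (adjusted P = 0.284). The number of INSIG2 counts per INSIG1 count was 0.0772, 0.0962 and 0.145 with DMSO and 0.178, 0.183 and 0.213 with abemaciclib. This ratio was higher in all 3 treated libraries, 1.86-fold on average (exact permutation test, two-sided, P = 0.1, adjusted P = 0.1 over 3 ratios chosen after the values were seen), and 0.1 is the smallest P that 3 libraries against 3 allow. Since INSIG1 was already separated downwards and INSIG2 upwards, this P was fixed beforehand, and the ratio is no further support.

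Ratios of this kind were taken at 2 other points, also chosen after the values were seen. SREBF1, which encodes the sister factor SREBP1 of fatty acid synthesis and is not among the 29 genes, rose from 120.4, 95.7 and 104.2 CPM to 208.1, 182.8 and 146.2 CPM (log2 fold change 0.74, SE 0.13, adjusted P = 4.39e-05). SREBF1 counts per SREBF2 count went from 1.74, 1.13 and 1.42 to 3.62, 3.22 and 2.03, a 2.03-fold shift with no overlap (exact permutation test, two-sided, P = 0.1, adjusted P = 0.1). Of the last 500 bases of SREBF1, 120 overlap RAI1 on the opposite strand, whose own log2 fold change was 0.21 (SE 0.19, adjusted P = 0.461). At the branch point after farnesyl pyrophosphate, GGPS1 counts per FDFT1 count went from 0.655, 0.789 and 0.662 to 0.962, 1.16 and 0.823. All treated libraries were above all controls, by 1.39-fold on average (exact permutation test, two-sided, P = 0.1, adjusted P = 0.1). In these 2 pairs, SREBF1 and FDFT1 were already separated by group, so both ratios are descriptions and no further support.

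**Figure D5:**
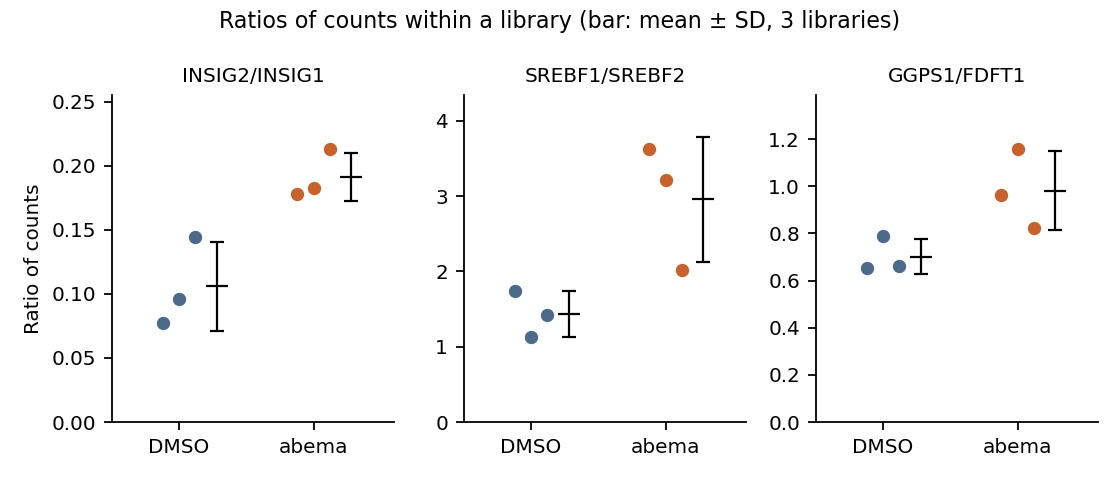
Ratio of the counts of 2 genes within each library (points; y axes from 0) with the mean and SD of 3 libraries (bars), for DMSO and abemaciclib (abema). INSIG2 to INSIG1, SREBF1 to SREBF2 and GGPS1 to FDFT1 are each higher in all 3 abemaciclib libraries than in any DMSO library, the closest approach being 0.789 against 0.823 for GGPS1 to FDFT1. The ratios were chosen after the values were seen, with at least 1 gene of each already separated by group.

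The liver X receptors NR1H2 and NR1H3 and the ligase gene MYLIP were tested, and 0 of 3 passed (0 at an unadjusted P under 0.05, and 0 by DESeq2). This count does not cover other genes that these receptors may control. NR1H2, the broadly expressed receptor LXRβ, was at 34.2, 30.3 and 30.0 CPM with DMSO and 23.6, 31.8 and 20.5 CPM with abemaciclib, and abemaciclib replicate 2 lay among the controls (log2 fold change −0.31, interval −0.72 to 0.10). NR1H3, LXRα, was at 5.12 ± 1.35 and 5.81 ± 2.45 CPM (SD, n = 3 each), and its interval ran from −0.72 to 1.10. MYLIP was at 19.3 ± 2.85 and 16.4 ± 2.15 CPM (SD, n = 3 each), with an interval from −0.71 to 0.25. ABCA1, the cholesterol efflux pump, was too low to test, with 3, 4 and 2 counts with DMSO and 0, 3 and 0 counts with abemaciclib, so its level could not be compared at this depth.

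STARD4, a soluble carrier that moves cholesterol between membranes and is another SREBP2 target, had the largest fall among the 27 genes tested. It lies on chromosome 5 from 111496033 to 111512590 and was at 11.0, 10.4 and 15.8 CPM with DMSO and 3.63, 6.66 and 5.67 CPM with abemaciclib. Every treated library lay below every control, and the level fell by 56.4% (log2 fold change −1.20, SE 0.35, adjusted P = 0.0121). With 35 to 52 counts per control library and 12 to 27 per treated library, the call was lost without DMSO replicate 3 (−0.99) or abemaciclib replicate 1 (−0.996). SOAT1, which esterifies cholesterol for storage in droplets, was at 16.0, 17.5 and 9.39 CPM with DMSO and 18.2, 8.14 and 9.73 CPM with abemaciclib. The treated range contained that of the controls, and the interval of its log2 fold change ran from −0.91 to 0.38.

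The genes were also counted by level. Of the 19 genes with a mean of 20 CPM or more, 7 passed, where 32.7% of all genes at that level did, with SEs of the log2 fold change between 0.11 and 0.23. Of the 8 below it (LSS, HSD17B7, SC5D, INSIG2, NR1H3, MYLIP, STARD4 and SOAT1), 1 passed, where 16.6% of all genes at that level did, with SEs between 0.23 and 0.44. With these SEs, a change of the size seen in DHCR7 or SCAP could be missed for the 8 genes at this depth. The chance of detecting it was not calculated.

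A wider list of 45 sterol and isoprenoid genes was also followed, of which 38 could be tested. Of these, 7 were higher and 4 lower, or 28.9% against 25.7% of all genes, with a median log2 fold change of 0.05. In uptake and transport, 27.3% of the 11 genes tested were higher and 0 lower, against 12.5% and 13.3% of all genes. This difference was not tested for so few genes. The 3 called genes of uptake and transport all rose: NPC2, the soluble carrier of cholesterol in lysosomes, went from 85.6, 94.8 and 85.7 CPM to 178.8, 175.7 and 179.4 CPM (log2 fold change 1.00, SE 0.11, adjusted P = 3.73e-08). LIPA, the lysosomal lipase that frees cholesterol from lipoprotein esters, went from 11.4 ± 3.03 to 20.2 ± 2.14 CPM (SD, n = 3 each; log2 fold change 0.82, adjusted P = 0.0183, but 0.0525 by DESeq2), a call lost without DMSO replicate 2 (0.66), DMSO replicate 3 (0.77) or abemaciclib replicate 3 (0.74). SCARB1, a receptor for high-density lipoprotein, went from 49.9, 48.7 and 58.2 CPM to 83.8, 78.5 and 73.5 CPM (log2 fold change 0.59, adjusted P = 0.00187), and NPC2 and SCARB1 kept their calls in every fit. STARD3, OSBPL2 and GRAMD1A, the most abundant genes of this group that did not pass, had log2 fold changes of −0.05, 0.21 and 0.10.

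In SREBP processing and sterol-regulated decay, 3 of 11 genes were higher (27.3%) and 2 lower (18.2%). Over all genes these shares were 12.5% and 13.3%, and the difference was not tested for so few genes. Beside SREBF1, the higher genes were UBE2G2, a conjugating enzyme of endoplasmic reticulum-associated decay (log2 fold change 0.54, adjusted P = 0.00743, lost without DMSO replicate 2 at 0.42), and SPRING1, which helps the protease that cuts SREBP (0.45, adjusted P = 0.0236). The call of SPRING1 was lost with DESeq2 (adjusted P = 0.0525) and without DMSO replicate 1 (0.45), DMSO replicate 3 (0.34) or abemaciclib replicate 1 (0.45). TMEM97, a sterol-responsive membrane protein, fell from 166.2, 178.8 and 183.6 CPM to 126.5, 144.6 and 100.5 CPM (log2 fold change −0.51, adjusted P = 0.00208) and kept its call in every fit, though 361 of its last 500 bases overlap IFT20 on the opposite strand (log2 fold change of IFT20 0.61, adjusted P = 0.0746). RNF145, a ligase of the same decay pathway, fell from 9.38 ± 2.03 to 3.49 ± 2.27 CPM (SD, n = 3 each; log2 fold change −1.45, adjusted P = 0.0168), and passed neither without DMSO replicate 2 (−1.27) nor without abemaciclib replicate 2 (−1.11). It also had too few counts for the filter of at least 10 in every library. MBTPS1, the site-1 protease, was at 95.4 ± 4.52 and 92.5 ± 10.3 CPM (SD, n = 3 each), with an interval of its log2 fold change from −0.29 to 0.21.

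The isoprenoid branches held 1 higher and 2 lower of 14 genes, or 7.14% and 14.3%, against 12.5% and 13.3% of all genes. COQ2, which attaches the isoprenoid tail in coenzyme Q synthesis, fell from 27.0, 32.1 and 21.8 CPM to 11.5, 12.3 and 14.9 CPM (log2 fold change −1.06, SE 0.23, adjusted P = 0.000936) in every fit. RABGGTA, a subunit of the enzyme that prenylates RAB proteins, went from 31.3 ± 3.57 to 19.5 ± 3.28 CPM (SD, n = 3 each; log2 fold change −0.68, adjusted P = 0.0141, lost without DMSO replicate 1 at −0.59). PGGT1B, the specific subunit of the other geranylgeranyl transferase, went from 30.6 ± 7.52 to 46.7 ± 2.79 CPM (SD, n = 3 each; log2 fold change 0.61, adjusted P = 0.0122), a call lost without DMSO replicate 2 (0.49) or DMSO replicate 3 (0.54). Neither efflux and ester gene with enough counts (ABCG1 and NCEH1, of 6) passed, with log2 fold changes of −0.45 and 0.10.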

How the data were processed

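The 6 parental ZR-75-1 libraries were grouped by the treatment in their labels. From 3′ mRNA libraries, reads were trimmed by the authors, placed on hg38 (STAR 2.7.5b) and counted per gene (featureCounts 2.0.1), and the raw counts were deposited, with no normalization or filter. Whether strand was used is not given in the sources used here. The study states independent biological replicates for RNA-seq of ZR-75-1 cells under abemaciclib and fulvestrant. It states 3 per condition for the RNA-seq in its figure on CDK4/6 inhibition and RB1 knockout. Neither statement names these libraries singly, and the labels do not mention separate cultures. P-values measure the spread between these libraries, taken as biological replicates on the study's statement.

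The test was the quasi-likelihood test of edgeR 4.0.16 under R 4.3.3, after filterByExpr and TMM, abemaciclib against DMSO with no other term, with Benjamini–Hochberg adjustment over 10863 genes and a threshold of 0.05. A standard error is the log2 fold change divided by the square root of F, and intervals are at 95%. Fits were tested on simulated data. Symbols were matched by identifier for 60401 rows, and coordinates are from GENCODE 44 on GRCh38. Replicates of a group differed by more than sampling noise in every pair. The genes and lists were chosen with earlier results of these data known. All 29 genes are accounted for, and of the wider list of 45 those past the threshold are named, with a few of high level that were not. Alternatives were DESeq2 1.42.0, its size factors in edgeR, total counts only, no filter on low counts, at least 10 counts in every library, a replicate block, and each library left out in turn.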

Additional observations from a re-analysis of the deposited data

How the results depend on the processing

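Of 84 summary values under an alternative, 76 stayed the same and 8 moved, all 8 with a library left out. Of 455 values of single genes, 410 kept direction and side of the threshold, 34 lost and 3 gained a call, and 8 changed sign, none of them called. When each library was left out in turn (6 fits), 1 to 3 cholesterol genes were higher and 2 to 6 lower, and their median log2 fold change was −0.0817 to 0.0279. The fewest were without abemaciclib replicate 1, with 1 higher and 2 lower; fewer libraries were then fitted. Over the same fits the wider list gave 5 to 8 higher and 3 to 5 lower, and all genes 981 to 1412 higher and 1132 to 1529 lower.

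The estimates that changed sign did so with 1 library left out, with these ranges: HSD17B7 −0.0961 to 0.0787, GGPS1 −0.0883 to 0.104, LSS −0.168 to 0.00661, MVD −0.16 to 0.42, NR1H3 −0.0537 to 0.490 and SQLE −0.0619 to 0.264. RNF145 gave no value with at least 10 counts in every library. The log2 ratios, with leave-one-out fits added after the data were seen, were 0.69 to 1.14 for INSIG2 to INSIG1, 0.86 to 1.28 for SREBF1 to SREBF2 and 0.35 to 0.59 for GGPS1 to FDFT1.

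The replicate numbers did not pair the libraries (correlations of −0.10, 0.00 and −0.16 between same-numbered libraries over 8126 genes). With them as a replicate block, 3 cholesterol genes were higher and 4 lower, and 1139 of all genes were higher and 1280 lower. DESeq2 gave 3 and 4 cholesterol genes, and 1069 and 1166 of all genes. Total counts only gave the same 3 and 5, and moved the share of higher genes among all called from 48.4% to 45.7%.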
